A study of Ovis aries with 8 samples.

Results

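Growth hormone-releasing hormone (GHRH), its receptor (GHRHR) and somatostatin (SST) are the genes through which the hypothalamus drives and restrains growth hormone. They were taken from the array by name, as every non-control probe whose gene name, description or matched RefSeq accession gave GHRH, GHRHR or SST. This found 3 genes of the 835 named on the array, with 5 of its 15008 probes: 2 probes for GHRH, 2 for SST, which the array design calls SRIF, and 1 for GHRHR.

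The series holds 8 hypothalami of late-gestation fetal sheep, measured on 1 array each with a 1-colour Agilent sheep expression array. In each of 4 twin sets, 1 fetus received estradiol-3-sulphate at 1 mg per day into the lateral cerebral ventricle from an osmotic mini-pump, and its twin was the control. All 8 fetuses had surgery at 120 to 127 days of gestation (around day 125 in the treatment protocol) and were 130 to 134 days old at collection. The sources differ on the length of infusion, 7 to 12 days in the design text and 7 to 10 days in the protocol, and on the controls, called untreated in one and infused with saline vehicle in the other; they are called vehicle fetuses here. The RNA had been stored for 7 years, and the labels do not say which replicate numbers belong to twins, so fetuses were numbered as labelled and each counted as 1 replicate.

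In the adult brain, GHRH is made mainly by neurons of the arcuate nucleus and SST mainly by neurons of the periventricular nucleus. Both peptides reach the pituitary through the portal vessels, where GHRH acts on GHRHR of the somatotroph cells to release growth hormone and SST acts on its own receptors to inhibit the release. SST is also made by many other neurons of the hypothalamus. Estradiol-3-sulphate is a conjugate that steroid sulphatase can turn back into estradiol.

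The 5 probes are printed here because they show which stretch of each transcript was read, and that the probes of a pair are not independent. Each is 60 bases long, and capitals mark the bases that both probes of a pair share, which is 58 bases for GHRH and 59 for SST. The GHRHR probe has no partner and is in lower case.
GHRH probe 1: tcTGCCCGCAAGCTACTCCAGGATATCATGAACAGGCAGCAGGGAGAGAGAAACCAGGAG
GHRH probe 2: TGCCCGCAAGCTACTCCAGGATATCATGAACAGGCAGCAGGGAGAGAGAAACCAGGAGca
SST probe 1: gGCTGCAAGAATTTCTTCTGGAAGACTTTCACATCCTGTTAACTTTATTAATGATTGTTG
SST probe 2: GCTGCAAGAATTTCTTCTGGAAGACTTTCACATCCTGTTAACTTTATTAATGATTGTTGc
GHRHR: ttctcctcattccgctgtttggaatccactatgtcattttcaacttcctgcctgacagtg

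Per the array design, the GHRH probes begin at bases 140 and 142 of their transcript, the SST probes at bases 348 and 349, and the GHRHR probe at base 1144. Read from its first base, SST probe 1 runs through 13 codons to a TAA stop, so it covers the end of the coding region, which holds the mature somatostatin peptide. The GC content was 55% in the GHRH probes, 35% in the SST probes and 45% in the GHRHR probe. The 2 GHRH probes differed by a median of 0.11 log2 units over the 8 arrays and by at most 0.74, in estradiol sulphate fetus 4. The 2 SST probes differed by a median of 0.15 and by at most 0.24. Since the members of a pair read nearly the same bases, their closeness shows the precision of 1 measurement and is no second measurement.

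Values below are log2 of the processed signal relative to the 75th percentile of the same array, so 0 is the signal that 75% of the spots do not exceed. GHRH, by probe 1, read -3.33, 0.29, -0.49 and -3.34 in estradiol sulphate fetuses 1 to 4. In vehicle fetuses 1 to 4 it read -2.82, -5.31, -5.52 and -3.52. Estradiol sulphate fetuses 2 and 3 were high and vehicle fetuses 2 and 3 low, while the other 4 fetuses, 2 from each group, lay close together between the extremes. The range of these scaled values was 55.9-fold. In unscaled processed intensity it was 87.9-fold, from 28.3 in vehicle fetus 3 to 2487 in estradiol sulphate fetus 2, and the low end of both ranges was not well above background.

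The GHRH signal was well above background, by the scanner software's flag, in 4 of 4 estradiol sulphate fetuses and in 2 of 4 vehicle fetuses. It did not pass in vehicle fetuses 2 and 3, whose GHRH values therefore mark a reading near the detection limit. Vehicle fetus 4 was on the dimmest array of the 8 and its GHRH signal did pass. The 2 high fetuses lay 2.34 log2 units, or 5.05-fold, above the highest of the other 6. In order of level, estradiol sulphate fetus 2 came first and fetus 3 next, then vehicle fetus 1, estradiol sulphate fetuses 1 and 4, and vehicle fetuses 4, 2 and 3. Vehicle fetuses 2 and 3 change places on probe 2, at -5.59 and -5.38. So do vehicle fetus 4, at -3.11, and estradiol sulphate fetuses 1 and 4, at -3.38 and -4.08, so these neighbours in the order were not separated by the measurement.

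**Figure D1:**
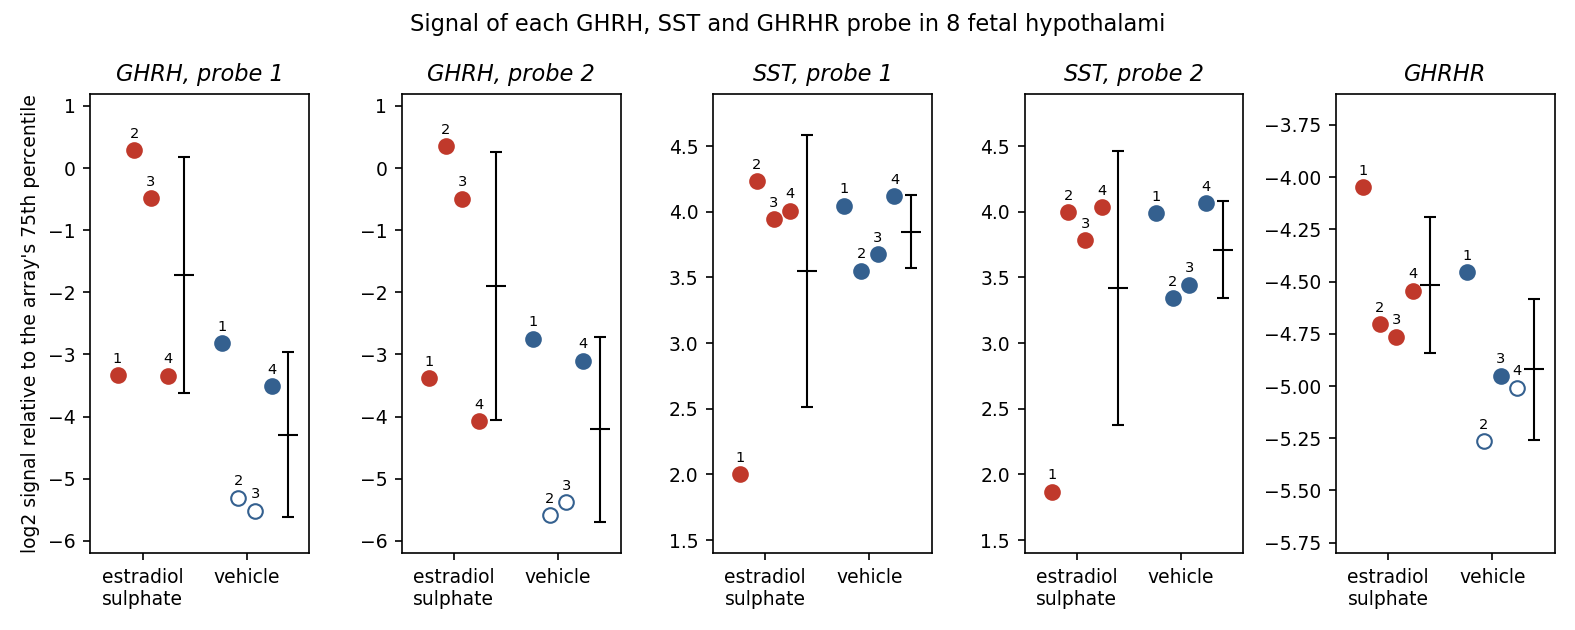
Log2 signal of each probe relative to the array's 75th percentile, 1 point per fetus with its replicate number, filled where well above background and open where not; the black bar is the group mean ± SD (n = 4), and the vertical range differs between genes. By probe 1 of each gene, GHRH spans -5.52 to 0.29 with 2 high estradiol sulphate fetuses, and SST stays between 3.55 and 4.23 except for estradiol sulphate fetus 1 at 2.00. GHRHR, with 1 probe, lies between -5.27 and -4.05.

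The comparison of the groups asks whether the genes of the axis differ in transcript level after the infusion. GHRH averaged -1.72 ± 1.89 (SD, n = 4) in the estradiol sulphate fetuses and -4.29 ± 1.33 (SD, n = 4) in the vehicle fetuses. The difference was 2.57 ± 0.94 (SE) log2 units, a 5.95-fold higher signal, with a 95% confidence interval from 0.46 to 4.69. In limma the unadjusted p was 0.0222 and the p adjusted over all 11748 probes tested by Benjamini-Hochberg was 0.501, so GHRH did not pass the threshold of 0.05. An exact two-sided permutation test of GHRH alone gave p = 0.114, where the smallest p that 4 fetuses against 4 allow is 0.0286. The groups overlapped, since 2 of 4 estradiol sulphate fetuses were above every vehicle fetus and the other 2 were below vehicle fetus 1. Leaving out 1 fetus at a time gave 3.74-fold without estradiol sulphate fetus 2 and 8.66-fold without estradiol sulphate fetus 4, with no adjusted p under 0.391. GHRH probe 2 gave 2.30 ± 1.06 (SE), with adjusted p = 0.565 in limma and an exact permutation p of 0.171.

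The estradiol sulphate arrays were brighter as a whole, which bears on a gene that is near background in some fetuses. Their 75th percentile of processed intensity was 1584 to 2251, against 969 to 1610 on the vehicle arrays, and 77.0% to 83.1% of probes were well above background, against 67.8% to 77.4%. With background corrected by normexp and arrays quantile normalized, the GHRH difference was 1.82. With values below each array's detection floor raised to that floor, an alternative chosen after seeing the data, it was 2.52. The groups also sat in separate columns of the 1 slide, and this position cannot be told apart from the treatment.

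SST was bright in every fetus and well above background in all 8. By probe 1 it read 2.00, 4.23, 3.94 and 4.01 in estradiol sulphate fetuses 1 to 4, and 4.05, 3.55, 3.68 and 4.12 in vehicle fetuses 1 to 4. Estradiol sulphate fetus 1 was low, and the other 7 fetuses, of both groups, lay within 0.68 log2 units of each other. Its SST signal was 2.92-fold below the lowest of the other 7 and 4.16-fold below the mean of the other 3 estradiol sulphate fetuses. Probe 2 placed the same fetus lowest, at 1.87 against 3.34 to 4.06 in the other 7. Among those 7 the probes disagreed on the order at the top, where probe 1 put estradiol sulphate fetus 2 first and probe 2 put vehicle fetus 4 first. Both probes placed vehicle fetuses 2 and 3 at the bottom of the 7.

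The SST groups averaged 3.55 ± 1.04 (SD, n = 4) with estradiol sulphate and 3.85 ± 0.28 (SD, n = 4) with vehicle. The difference of -0.30 ± 0.44 (SE) had an interval from -1.30 to 0.70, which spans 0.406-fold to 1.62-fold. It was smaller than the spread within the estradiol sulphate group, with adjusted p = 0.891 in limma and an exact permutation p of 0.857. Its direction rested on 1 fetus: without estradiol sulphate fetus 1 the SST difference was 0.21, with an interval from -0.19 to 0.62 and adjusted p = 0.866 in limma. The tissue was taken in bulk, so fewer cells of a type and less RNA per cell cannot be told apart for any gene here.

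GHRHR, the receptor through which GHRH acts, was dim. It read -4.05, -4.71, -4.76 and -4.54 in estradiol sulphate fetuses 1 to 4, and -4.46, -5.27, -4.95 and -5.01 in vehicle fetuses 1 to 4. The signal was well above background in 4 of 4 estradiol sulphate fetuses and in vehicle fetuses 1 and 3. Estradiol sulphate fetus 1 was highest, vehicle fetus 1 came next, and the groups overlapped. The scaled values spanned 2.32-fold, from vehicle fetus 2 to estradiol sulphate fetus 1. Unscaled intensities spanned 3.39-fold, from 30.1 in vehicle fetus 4 to 102 in estradiol sulphate fetus 1, and vehicle fetuses 2 and 4 were not well above background.

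GHRHR averaged -4.52 ± 0.32 (SD, n = 4) with estradiol sulphate and -4.92 ± 0.34 (SD, n = 4) with vehicle. The difference was 0.40 ± 0.21 (SE) with an interval from -0.07 to 0.88. In limma the unadjusted p was 0.0875 and the adjusted p 0.616. As for GHRH, the 4 estradiol sulphate arrays alone met the filter. Without the filter the limma p was 0.0983 unadjusted and 0.468 adjusted. The direction of the GHRHR difference depended on the background correction, since normexp with quantile normalization gave -0.03. Without estradiol sulphate fetus 1 it was 0.25. In the body GHRHR is best known from pituitary somatotrophs, so pituitary genes are given beside it. Of 14 such genes 10 were on the array, and growth hormone (GH), FSHB, POU1F1 and GNRHR were not well above background on any array. LHB, by contrast, was bright, at 4.10 to 4.83 in the estradiol sulphate fetuses and 3.87 to 4.93 in the vehicle fetuses. Means with estradiol sulphate and with vehicle were -1.67 and -3.48 for CGA, -3.64 and -4.24 for TRHR, and -4.29 and -3.89 for prolactin (PRL). CGA was well above background in only 2 vehicle fetuses. POMC, at 1.59 and 0.32, is also on the list of hypothalamic peptides. The summed signal of the list was 2389% to 3014% of the 75th percentile with estradiol sulphate and 1740% to 3208% with vehicle. LHB alone made up 59.2% to 97.1% of that sum in each fetus, so the sum says little of the other genes, and the part of pituitary transcripts in the GHRHR values was not tested.

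Across the whole array no probe passed the adjusted threshold in limma (0% of 11748). Before adjustment, 708 probes (6.03%) had a p under 0.05 with estradiol sulphate higher and 356 (3.03%) with it lower. The 3 genes, each by its brightest probe, gave 1 on the higher side, GHRH, and 0 on the lower. For GHRH and GHRHR the estradiol sulphate arrays alone met the filter, so this count is not used as support. GHRH probe 2, which reads nearly the same bases, had an unadjusted p of 0.0574 in limma, so the count depended on the probe. By probe 1 the unadjusted p of GHRH was 0.0594 to 0.0661 when any 1 of 4 fetuses was left out, estradiol sulphate fetuses 2 and 3 and vehicle fetuses 2 and 3. Its place on the higher side therefore depended on each of them. Groups that did not overlap were found for 370 probes (3.15%) with estradiol sulphate higher and 325 (2.77%) with it lower, and for 0 of the 5 probes described. The split between higher and lower probes moved with the scaling. It was 345 to 753 when arrays were scaled on their median and 344 to 760 in the authors' deposited table, both of which shift the median of all probes by -0.10. It was 418 to 332 with normexp and quantile normalization. The GHRH difference was 2.47 on both the median scale and the deposited table.

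The releasing and the inhibiting peptide were then set against each other in each fetus, as GHRH minus SST on the log2 scale. This difference is free of the scaling between arrays, and only its change from fetus to fetus has a meaning, since the probes of different genes bind with different strength. It was -5.34, -3.95, -4.43 and -7.35 in estradiol sulphate fetuses 1 to 4, and -6.87, -8.86, -9.20 and -7.63 in vehicle fetuses 1 to 4. Estradiol sulphate fetuses 1, 2 and 3 lay above every vehicle fetus, and estradiol sulphate fetus 4 lay below vehicle fetus 1 and above the other 3. The means were -5.26 ± 1.50 (SD, n = 4) and -8.14 ± 1.08 (SD, n = 4), a 7.34-fold higher ratio of GHRH to SST with estradiol sulphate. The GHRH readings of vehicle fetuses 2 and 3 were not well above background. The vehicle means of GHRH and of the ratio, and the folds or shifts taken from them, therefore rest partly on readings near the detection limit. No p is given for this ratio, because the genes that form it were chosen with results of these data known. With normexp and quantile normalization the ratio was 3.85-fold higher and the same count of 3 fetuses lay above every vehicle fetus.

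The 3 fetuses with a high ratio did not reach it in the same way. Relative to the vehicle means, estradiol sulphate fetus 2 was 4.58 log2 units higher in GHRH and 0.38 higher in SST. Fetus 3 was 3.80 higher in GHRH and 0.10 higher in SST. In both, nearly the whole shift was in GHRH. In estradiol sulphate fetus 1 GHRH was 0.96 above the vehicle mean, within the vehicle range, and SST was -1.85 relative to it, so the larger portion of its shift of 2.80 came from the low SST signal. Estradiol sulphate fetus 4 was 0.95 higher in GHRH and 0.16 higher in SST, and its net shift of 0.79 was smaller than the 1.27 of vehicle fetus 1.

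**Figure D2:**
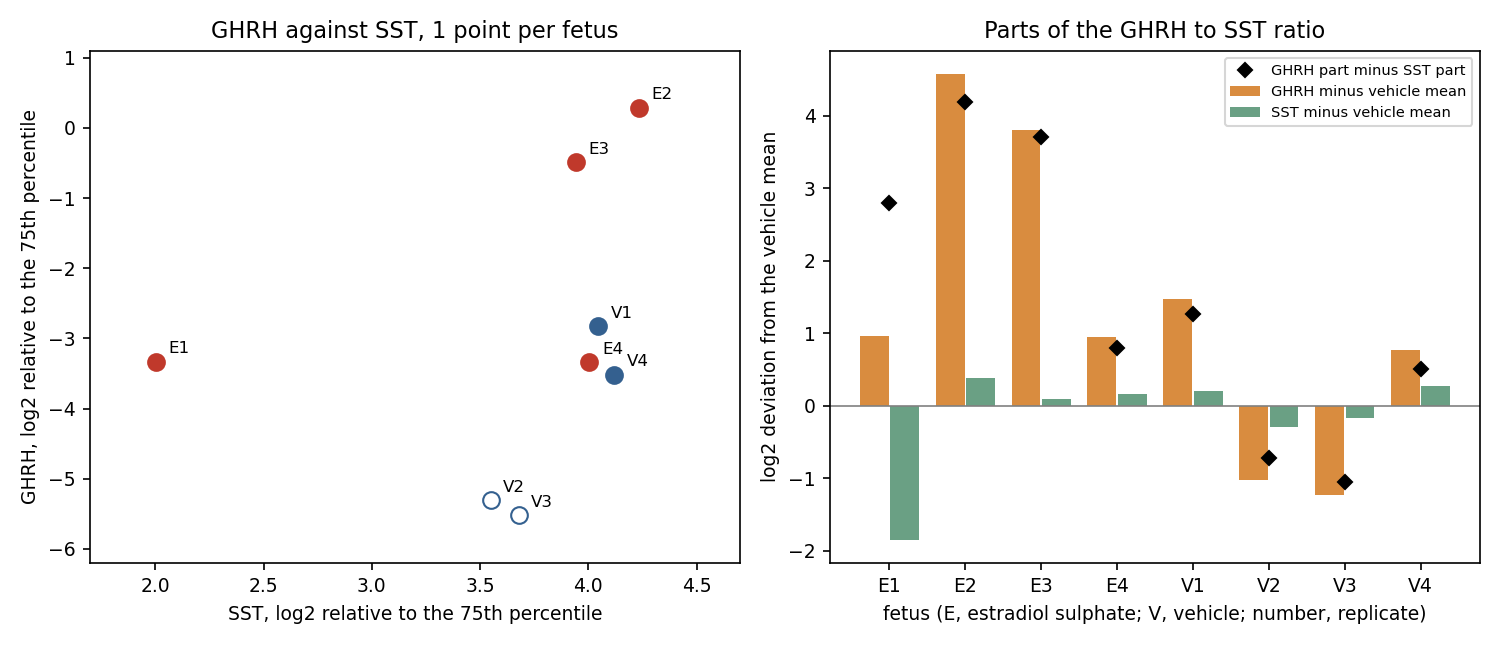
Left, GHRH against SST in log2 signal relative to the array's 75th percentile, 1 point per fetus (E and red, estradiol sulphate; V and blue, vehicle; open where GHRH was not well above background). Right, each fetus's log2 deviation from the vehicle mean for GHRH and SST as bars and for GHRH minus SST as diamonds: fetuses E2 and E3 stand out by GHRH (4.58 and 3.80), fetus E1 by SST (-1.85).

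GHRH and SST did not show opposite levels across fetuses. Over the 8 fetuses Pearson's r was 0.30 (exact permutation p = 0.486) and Spearman's rho 0.45 (exact permutation p = 0.267), both two-sided, and both were 0.486 after adjustment over these 2 relations. Without the 2 fetuses farthest from the median of SST, estradiol sulphate fetus 1 and vehicle fetus 2, r was 0.68 (n = 6). Leaving out estradiol sulphate fetus 1 alone gave 0.76, so the pooled value rested on that fetus. With 4 fetuses a group, no value within a group is given.

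The genes whose profile over the 8 arrays was most like that of GHRH were sought among 667 named genes, 1 probe each. They were NAMPT (r = 0.99), POMC (0.97), NPY (0.95), EGFR (0.94) and AGRP (0.91). POMC, NPY and AGRP encode peptides of arcuate neurons that act on feeding, NAMPT is an enzyme of NAD synthesis, and EGFR is the receptor for epidermal growth factor. After each group's mean was subtracted, the highest values were those of NAMPT (0.98), POMC (0.98), NPY (0.92), PCSK1 (0.91), a convertase that cuts peptide precursors, and NRG1 (0.88). All of these are descriptions over 8 points that share the same RNA and the same arrays.

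POMC read 0.52, 3.41, 2.27 and 0.17 in estradiol sulphate fetuses 1 to 4, and 1.15, -0.13, -0.48 and 0.75 in vehicle fetuses 1 to 4. NPY read 1.14, 2.41, 1.51 and 0.79, and then 0.64, -0.80, -0.75 and 0.35. AGRP read -0.18, 1.30, 0.50 and -2.02, and then -0.54, -5.29, -5.65 and -3.56. In each of the 3 genes estradiol sulphate fetuses 2 and 3 were the highest of the 8 and vehicle fetuses 2 and 3 were among the lowest, as for GHRH. They parted from GHRH elsewhere: NPY and AGRP were higher in estradiol sulphate fetus 1 than in any vehicle fetus, while GHRH in that fetus was below vehicle fetus 1. AGRP, like GHRH, was not well above background in 2 vehicle fetuses, and EGFR passed that flag in 5 of the 8 fetuses. NAMPT had a much narrower range, -1.71 to -0.80. By adjusted p in limma, NPY was at 0.433, AGRP at 0.445, POMC at 0.628 and GHRH at 0.501. For AGRP, as for GHRH, the estradiol sulphate arrays alone met the filter.

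Of 24 hypothalamic peptide genes 12 were on the array, and all 12 passed the filter on dim probes, with a summed signal of 2482% to 5198% of the 75th percentile in the estradiol sulphate fetuses and 2119% to 4055% in the vehicle fetuses. In the comparison of groups 8 of the 12 were above 0, with a median difference of 0.29, against 57.5% and 0.04 over all probes tested. In limma 3 of the 12 had an unadjusted p under 0.05, NPY and AGRP on the higher side and NPVF, at -1.21, on the lower. Over all probes tested 6.03% had one on the higher side and 3.03% on the lower. GNRH1 was also lower, at -1.59. The part of these genes' common variation in the GHRH values was not tested. Oxytocin (OXT), a peptide of the paraventricular and supraoptic nuclei, did not share the pattern, with r = -0.62 to GHRH.

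**Figure D3:**
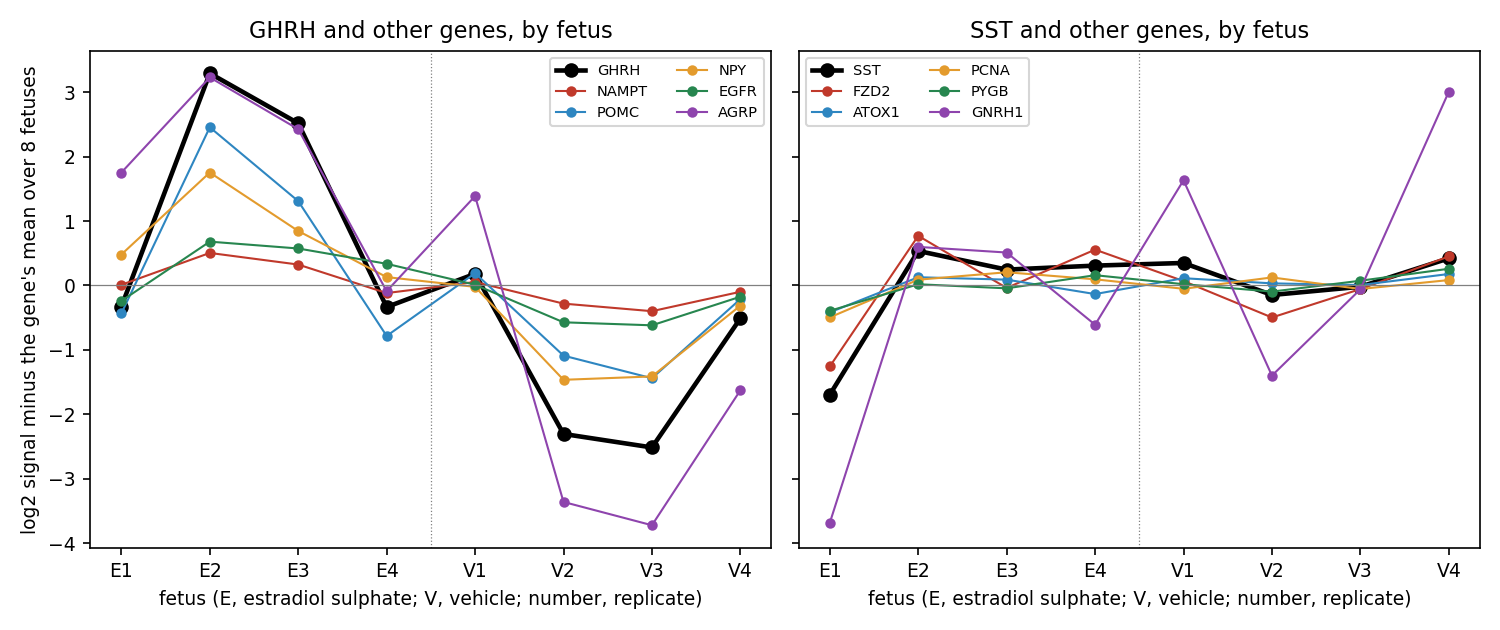
Log2 signal of GHRH (left) and SST (right), in black, and of the 5 named genes most like each, as deviation from each gene's mean over the 8 fetuses (E, estradiol sulphate; V, vehicle). NAMPT, POMC, NPY, EGFR and AGRP follow GHRH with its high values in E2 and E3 (r from 0.91 to 0.99); of the genes beside SST, FZD2 kept r = 0.88 without E1, where PCNA had 0.06, and GNRH1 was below the detection floor in E1.

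The genes most like SST over the 8 arrays were FZD2 (r = 0.92), a Wnt receptor, ATOX1 (0.89), a copper chaperone, PCNA (0.88), a DNA replication clamp, PYGB (0.86), brain glycogen phosphorylase, and GNRH1 (0.84), the precursor of gonadotrophin-releasing hormone. After group means were subtracted they were FZD2 (0.94), TAC1 (0.94), the precursor of substance P, ATOX1 (0.91), GLUD1 (0.90), glutamate dehydrogenase, and PCNA (0.88). Estradiol sulphate fetus 1 was the lowest of the 8 in FZD2, at -1.39 against -0.63 to 0.63 in the others. It was the lowest in PCNA, at -0.77 against -0.33 to -0.07. GNRH1 was well above background in 6 of the 8 fetuses, and its reading in estradiol sulphate fetus 1 was below the detection floor of that array. Over the other 7 fetuses r with SST was 0.88 for FZD2, 0.67 for GNRH1, 0.47 for PYGB, 0.39 for ATOX1 and 0.06 for PCNA.

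TTR, the transthyretin gene of the choroid plexus, was also lowest there, at -3.12 against -0.87 to 2.67. Of 6 choroid plexus genes TTR and AQP1 were on the array. AQP1 was not well above background on any array. The summed signal of the pair was 12.6% of the 75th percentile in estradiol sulphate fetus 1 against 55.4% to 79.4% in the vehicle fetuses. It reached 637% in another estradiol sulphate fetus, so that group spread to both sides of the vehicle range. The part of these signals in the low SST value was not tested.

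Of a list of 58 genes of the growth axis, 29 were on the array and 24 were well above background on at least 4 arrays. The 24 included 14 above 0 and 10 below, with a median difference of 0.07, against 0.04 over all probes tested. Only GHRH had an unadjusted p under 0.05 by its brightest probe, on the higher side, 0 had one on the lower side, and 0 passed after adjustment in limma. GHRH met the filter by its estradiol sulphate arrays alone. The share above 0 was 58.3%, against 57.5% of all probes, and without GHRH, GHRHR and SST it was 57.1% of 21. Scaling on the median or the deposited table put 11 of the 24 above 0, and normexp with quantile normalization 10.

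The receptors for SST differed little between groups. SSTR1 gave -0.02 ± 0.16 (SE) and SSTR2 gave -0.03 ± 0.14, and both turned positive without certain single fetuses. SSTR5 gave 0.10 ± 0.11, and it was just below 0 under median scaling, normexp with quantile normalization and the deposited table. Over all 8 fetuses SSTR2, for example, ran from -2.28 to -1.74, a far narrower range than that of SST or GHRH. In estradiol sulphate fetus 1, where SST was low, SSTR1 was at -1.64, SSTR2 at -2.09 and SSTR5 at -1.94, the first 2 within the range of the vehicle fetuses.

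Growth hormone (GH), the ghrelin receptor GHSR, the prolactin receptor PRLR and POU1F1, a transcription factor of somatotrophs, were not well above background in any of the 8 fetuses. Ghrelin (GHRL), a stimulator of growth hormone release, had 2 probes. The brighter was well above background in 3 estradiol sulphate fetuses and in 0 vehicle fetuses, and was not tested. The other was so in 4 and 0, so it passed the filter on dim probes only through the estradiol sulphate fetuses, and no test is given. No fold is given either, because the bound set by the detection floor of the vehicle arrays was under 1.

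GHR, the growth hormone receptor, was 0.51 ± 0.26 (SE) higher with estradiol sulphate, with adjusted p = 0.612. It read -2.78, -2.60, -3.73 and -3.57 in estradiol sulphate fetuses 1 to 4 and -3.67, -3.80, -3.36 and -3.87 in vehicle fetuses 1 to 4, so its 2 high fetuses were 1 and 2, not 2 and 3 as for GHRH. Galanin (GAL), a peptide that GHRH neurons also make in rodents, was 1.02 ± 0.55 higher (adjusted p = 0.624) and had r = 0.86 with GHRH over the 8 arrays. Prolactin (PRL) was at -0.40 ± 0.24 by its brighter probe and at -0.98 by the other, with adjusted p of 0.659 and 0.643.

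Of the growth factors IGF1 and IGF2, IGF2 came closer to GHRH in pattern and size. It read -1.52, 0.75, 0.95 and -1.09 in estradiol sulphate fetuses 1 to 4, and -1.59, -3.08, -1.74 and -0.52 in vehicle fetuses 1 to 4. As for GHRH, estradiol sulphate fetuses 2 and 3 were highest and the groups overlapped. The difference was 1.50 ± 0.67 (SE), 2.83-fold, with an unadjusted p of 0.0501 and adjusted p = 0.551 in limma, and r with GHRH was 0.89. A second IGF2 probe gave 0.88 but passed the background flag in 4 estradiol sulphate fetuses and only 1 vehicle fetus. The former alone carried it past the filter, so no test is given for it.

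IGF1 was at -0.13 ± 0.28 and turned positive without estradiol sulphate fetus 1 or vehicle fetus 3. IGF1R, the receptor for both growth factors, gave 0.36 ± 0.31 by its brightest probe, and 0.75 and 0.46 by the other 2. The probe at 0.46 had an unadjusted p of 0.0305 and an adjusted p of 0.522 in limma. On this probe the groups did not overlap, as on 3.15% of all probes tested with estradiol sulphate higher. On that side 6.03% of all probes had an unadjusted p under 0.05 in limma. The probe at 0.75 was well above background in 4 estradiol sulphate fetuses and only 1 vehicle fetus. The former alone carried it past the filter, so no test is given for it. IGF2R, which binds and clears IGF2, was at -0.06 ± 0.16 and turned positive without estradiol sulphate fetus 3.

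The IGF-binding proteins showed no common direction. IGFBP1 was at 0.33 ± 0.16 (adjusted p = 0.587), IGFBP2 at -0.21 ± 0.25, IGFBP3 at -0.11 ± 0.17 and IGFBP4 at -0.22 ± 0.17, where IGFBP2 turned positive without vehicle fetus 4. IGFBP5 at 0.02 ± 0.17 and IGFBP6 at 0.05 ± 0.16 turned negative under median scaling and in the deposited table. None of the 6 passed the adjusted threshold.

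**Figure D4:**
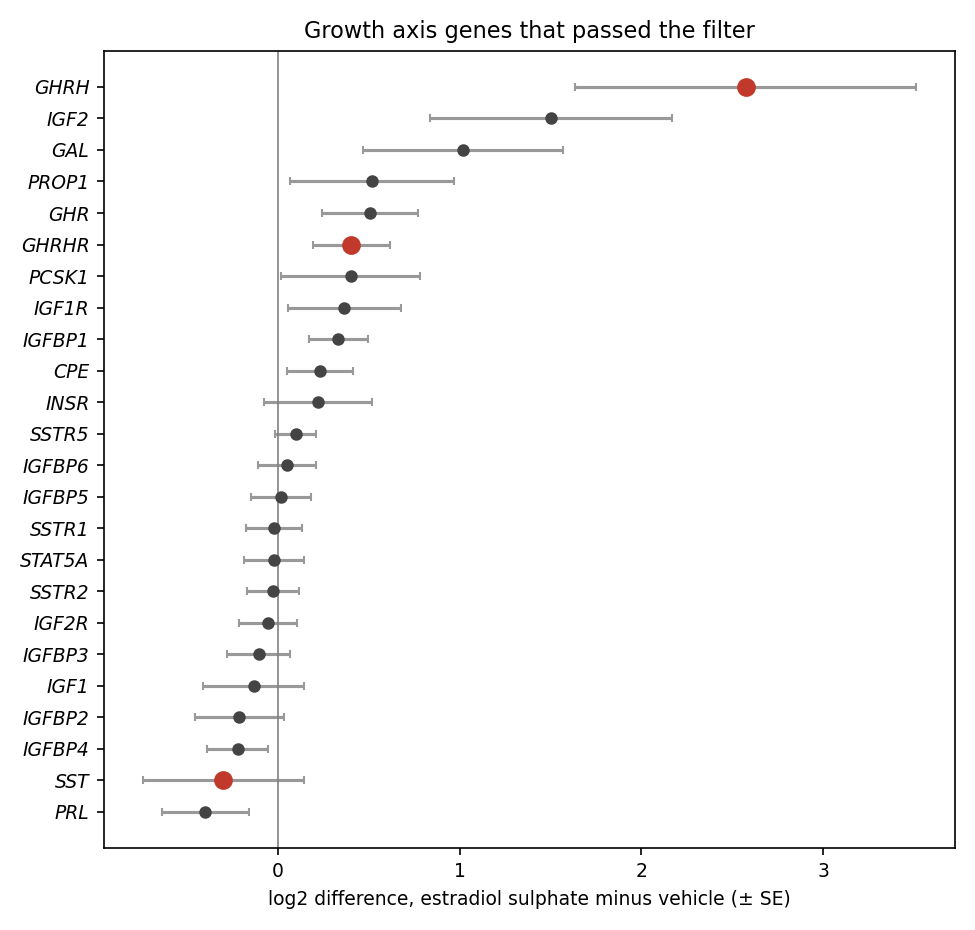
Difference between estradiol sulphate and vehicle fetuses (log2, ± SE from limma, 4 fetuses per group) for the 24 growth axis genes well above background on at least 4 arrays, 1 probe per gene, with GHRH, GHRHR and SST in red. GHRH (2.57) and IGF2 (1.50) lie farthest from 0 with wide errors, while SSTR1, SSTR2 and SSTR5 lie within 0.10 of it.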

How the data were processed

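Per the file headers, Agilent Feature Extraction 10.1.1.1 gave the authors' spot intensity, background-subtracted, from a scan in 1 colour with all 8 arrays on 1 slide. The deposited log2 table was used as an alternative only: it equals log2 intensity minus 1 constant per array, and the sources used here do not give the rule for the constant. Control spots and 66 outlier spots were dropped, repeated spots were averaged per probe, and log2 intensity was set relative to each array's 75th percentile. No spot was saturated. Probes well above background on at least 4 of 8 arrays were kept (11748), and 3260 were left out.

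limma 3.58.1 in R 4.3.3 (lmFit, eBayes) compared the groups, two-sided, with no other term, and p-values were adjusted by Benjamini-Hochberg across every probe tested. On 11748 simulated probes the model recovered 83% of changes of 1 log2 unit and 98% of changes of 2. They were drawn independently with each probe's own mean and with its spread as moderated by limma toward that of all probes. There were 7 false calls. The 200 changed probes were chosen at random and split evenly between the 2 sizes, and each share is over the probes of its size. The shares do not give the power for a gene that varies as much as GHRH, with group SDs of 1.89 and 1.33. The number of arrays, 4 per group, limits the precision, and p-values treat the fetuses as independent although they come from 4 twin sets.

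Gene names came from the array design and from RefSeq (ARS-UI_Ramb_v3.0, for names alone), which named 1343 probes (8.95%). The brightest probe stands for a gene. Named with values are all probes of GHRH, GHRHR and SST, the hormones and receptors of the axis, and the 5 named genes most like GHRH and SST by Pearson's r. Values of TTR, OXT, LHB and other list markers lie outside this rule and were chosen after they were seen. The members and lists were chosen with earlier results of these data known. Marker lists of neurons and oligodendrocytes had no gene on the array. Those of astrocytes (3 on the array), microglia (4) and endothelium (3) had 0 genes at an unadjusted p under 0.05. Alternatives were other scalings, background correction, filters, priors, array weights, a replicate block and leaving out each fetus.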

Additional observations from a re-analysis of the deposited data

Results flagged for a closer look

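In 5 of the 44 sets of 4 fetuses examined, a gene in 1 group, a single fetus lay apart from the other 3 by more than Dixon's 95% critical value for the ratio of its gap to the group's range. Chance alone gives this in about 1 of 20 sets. SST stood out by both probes in estradiol sulphate fetus 1, with a ratio of 0.870 for probe 1 (2.00 against 3.94 in the nearest fetus) and 0.884 for probe 2 (1.87 against 3.78), which read nearly the same bases. The same fetus was high in IGFBP3, at -3.75 against -4.32, with a ratio of 0.899. IGFBP6 was low in estradiol sulphate fetus 4, at 0.83 against 1.26, with a ratio of 0.831. IGF1R was high in vehicle fetus 4 by its brightest probe alone, at -2.80 against -3.98, with a ratio of 0.893. On each other IGF1R probe that fetus was the lowest of all, at -5.82 and -4.28, so the probes disagreed there.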

How the results depend on the processing

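GHRH was higher with estradiol sulphate under all 20 alternatives, from 1.82 to 3.11 log2 units, with adjusted p from 0.222 to 0.839. Some of these could not have turned the sign. Leaving out the filter, the trended prior, the replicate block and the permutation test keep the difference itself at 2.57. No alternative gave an adjusted call at any probe. The unadjusted p of GHRH was under 0.05 in 4 of the 8 fits that left out a fetus, and that of GHRHR in 1, without vehicle fetus 1. SST ran from -0.53 to 0.21 when single fetuses were left out, positive only without estradiol sulphate fetus 1. GHRHR ran from 0.25 to 0.56 with single fetuses left out and was -0.034 with normexp and quantile normalization. The GHRH minus SST difference ran from 1.94 to 3.57. It was 2.44 to 3.57 with single fetuses left out, and the groups no longer overlapped without estradiol sulphate fetus 4 or without vehicle fetus 1. The r of GHRH with SST ran from 0.14 to 0.76 with single fetuses left out. With median scaling rho was 0.74 (exact permutation p = 0.0458, 0.0917 adjusted). Probes at an unadjusted p under 0.05 numbered 1064, against 693 with quantile normalization, 2104 without a filter (886 higher, 1218 lower) and 689 to 1289 with single fetuses left out; 689 was without estradiol sulphate fetus 2. The split was 525 to 445 with the detection floor. Growth axis genes above 0 numbered 14, and 10 to 16 under the alternatives.

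Signs near 0 turned when single fetuses were left out. The range was -0.12 to 0.062 for SSTR1, -0.087 to 0.091 for SSTR2, -0.35 to 0.033 for IGF1, -0.19 to 0.055 for IGF2R, -0.38 to 0.033 for IGFBP2, -0.079 to 0.14 for IGFBP5 and -0.043 to 0.17 for IGFBP6. With other processing, SSTR5 was at -0.0025 with median scaling, -0.019 with normexp and quantile normalization and -0.0036 in the deposited table. IGFBP5 was at -0.085, -0.10, -0.21, -0.0024, -0.086 and -0.034 with median, quantile, cyclic loess, normexp with quantile, deposited table and array weights. IGFBP6 was at -0.051 with median scaling and -0.052 in the deposited table. The cause was not tested. GHRH and GHRHR have no value under the filter that asks for all 8 arrays, since neither was well above background in all.

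With the replicate number as a replicate block, GHRH was at 2.57 (unadjusted p of 0.0507 against 0.0222 without the block, adjusted p = 0.507 in limma), SST at -0.30, GHRHR at 0.40 (unadjusted p of 0.0162 against 0.0875, adjusted p = 0.436), and the 4 same-numbered differences in GHRH minus SST were all above 0, from 0.29 to 4.91. The block gave 1158 probes at an unadjusted p under 0.05. The numbers were not treated as pairs, because the labels do not say which fetuses are twins. The correlations of deviations between same-numbered fetuses were 0.24, -0.01, 0.19 and 0.25, not all above 0.1. Fetuses numbered 1, 3 and 4 correlated best with the same number in the other group, and those numbered 2 did not. Whether the numbers mark twins is therefore not settled, and neither the blocked nor the unblocked p is preferred.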
